A study of Mus musculus with 10 samples.

Results

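Nuclear tRNA-Gly-CCC and tRNA-Gly-TCC are 2 of the 51 nuclear tRNAs, sorted by anticodon, whose fragments were counted in mouse sperm, and 2 of the 4 nuclear glycine tRNAs (the others are tRNA-Gly-GCC and tRNA-Gly-ACC). They were chosen by name. For each, reads from the 5′ end, the 3′ end and the CCA end were taken as the files give them and the remaining reads were called internal, which makes 8 parts, and all 8 had enough reads to be tested. Internal reads are thus defined by what they are not, and the files do not say where on the tRNA they lie. Small RNA was sequenced from spermatozoa of C57BL/6J males, taken from the epididymal tail and vas deferens. Males of the HFD-F0 group (n = 5 samples) had eaten a high-fat diet with 42% of kcal as fat from 4 weeks of age, for 10 weeks per the methods of the study, and males of the CD-F0 group (n = 5 samples) a control diet with 10%. No allele or other treatment is named for either group, and the labels do not say whether a sample is 1 mouse or a pool, so p-values measure the spread between these samples. RNA of 18–30 nt was cut from a gel, so longer fragments were not selected for. Depth was even, with 30431401 to 31586854 clean reads in the CD-F0 samples and 29558751 to 32178088 in the HFD-F0 samples, and levels are given as RPM, the reads scaled to 1000000 clean reads of the sample.

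Glycine tRNAs bring glycine to the ribosome, where the anticodon CCC pairs with the codon GGG and TCC (UCC in the RNA) with GGA. Mature tRNAs end in CCA, which an enzyme adds after transcription. Sperm are known to be rich in fragments from the 5′ end of tRNAs, glycine tRNAs among them, and a share of these fragments reaches sperm during passage through the epididymis.

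In RefSeq (mouse assembly GRCm38.p6) tRNA-Gly-CCC has 6 genes of 71 bases and tRNA-Gly-TCC has 7 genes of 72 bases. On chromosome 3 are n-TGccc5 (96351167 to 96351237), n-TGccc1 (96382911 to 96382981), n-TGccc6 (96424033 to 96424103) and n-TGtcc7 (96501009 to 96501080), so both tRNAs have genes in the same stretch. The other tRNA-Gly-CCC genes are n-TGccc3 on chromosome 4 (32230250 to 32230320), n-TGccc4 on chromosome 6 (86403893 to 86403963) and n-TGccc7 on chromosome 17 (25875088 to 25875158). Chromosome 1 holds 5 tRNA-Gly-TCC genes between 171037997 and 171102827, and n-TGtcc6 lies on chromosome 11 (69041278 to 69041349). Against GENCODE M21, n-TGccc7 lies whole within a UTR exon of Mettl26, 17 bases of n-TGtcc1 overlap a UTR exon of Fcgr3, and n-TGccc5 and n-TGccc1 lie inside other genes without touching an exon. The files sum all genes of an anticodon, so the reads could not be placed at single genes. The deposited 5′ end values of tRNA-Gly-TCC were whole numbers in 10 of 10 samples and those of tRNA-Gly-CCC in 1 of 10, where a value that is not whole contains reads shared with another sequence. Among the 49 nuclear tRNAs with 5′ end reads in every sample, 8 were whole throughout, so at the 5′ end the tRNA-Gly-CCC level is the less certain of the pair. The 3′ end, CCA-end and total values of both tRNAs were whole in 0 of 10 samples, so these levels, and the internal ones computed from them, also contain shared reads. For tRNA-Gly-GCC, used as a comparison further on, 5′ end values were whole in 1 of 10 samples too.

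Both tRNAs were among the well-read ones. tRNA-Gly-TCC had a mean of 8937 RPM ± 1752 (SD, n = 10) and tRNA-Gly-CCC 7298 RPM ± 1599 (SD, n = 10), and per base of the gene these were 124 and 103 RPM, which placed them 7th and 9th of the 47 nuclear tRNAs with a RefSeq length. tRNA-Gly-GCC followed at 89.7 RPM per base (11th) and tRNA-Gly-ACC was far down at 3.86 (44th). By total RPM the 3 highest nuclear tRNAs were tRNA-Lys-TTT (27698 RPM), tRNA-Lys-CTT (26170 RPM) and tRNA-iMet-CAT (16429 RPM). In that order tRNA-Gly-TCC stood 8th of 51, and neither tRNA-Cys-GCA above it (p = 0.0742, exact paired permutation test over samples, two-sided) nor tRNA-Val-CAC below it (p = 0.365, same exact test) differed from it beyond the spread between samples. tRNA-Gly-CCC stood 12th and could not be separated from tRNA-Leu-AAG above (p = 0.990, same exact test) or tRNA-Ser-AGA below (p = 0.588, same exact test). Of all nuclear glycine tRNA reads, tRNA-Gly-TCC made up 39.0%, tRNA-Gly-CCC 31.9%, tRNA-Gly-GCC 27.8% and tRNA-Gly-ACC 1.30%.

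The 2 tRNAs differed in how their reads fell into the 4 parts. Of all nuclear tRNA reads, 74.8% came from the 5′ end and 22.9% were internal, whereas for tRNA-Gly-CCC a mean of 7.60% came from the 5′ end, the 46th of 51 nuclear tRNAs. tRNA-Gly-TCC, at 46.2%, stood 26th and was itself the median tRNA. By the share of its own reads tRNA-Gly-CCC stood 7th for internal (78.6%), 3rd for CCA-end (13.1%) and 10th for 3′ end reads (0.783%). tRNA-Gly-CCC ranked 30th by 5′ end RPM but 1st of 51 by internal reads (5772 RPM), CCA-end reads (929 RPM) and 3′ end reads (56.3 RPM), and was 1st per base among 47 in all 3. tRNA-Gly-TCC ranked 13th by 5′ end (4218 RPM), 2nd by internal (4444 RPM), 5th by CCA end (270.3 RPM) and 28th by 3′ end reads (4.99 RPM). tRNA-Gly-CCC held 10.1% of all internal reads of nuclear tRNAs and 18.4% of all CCA-end reads, against 0.291% of all 5′ end reads. For tRNA-Gly-TCC these shares were 7.86%, 5.44% and 2.26%.

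**Figure D1:**
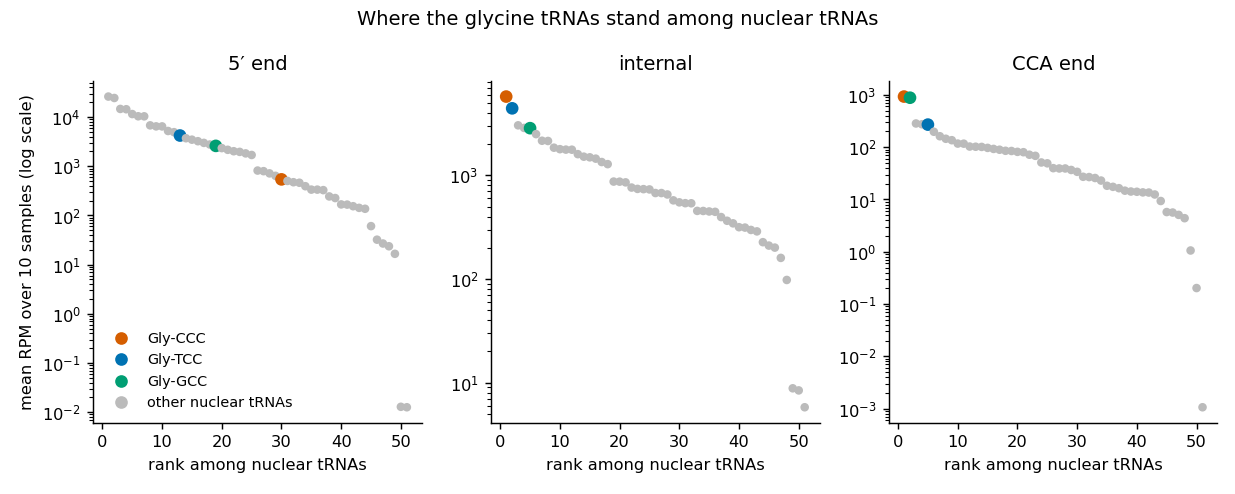
Mean RPM over the 10 samples (vertical, log scale) of each nuclear tRNA with reads of the part, against its rank (horizontal), for 5′ end, internal and CCA-end reads; coloured points mark tRNA-Gly-CCC, tRNA-Gly-TCC and tRNA-Gly-GCC. tRNA-Gly-CCC is 30th by 5′ end but 1st by internal and CCA-end reads, and tRNA-Gly-TCC is 2nd by internal reads. Reads with and without a genome match are counted.

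The lead of tRNA-Gly-CCC was not equally clear in each part. Its internal level was 1.28 times that of tRNA-Gly-TCC, the next tRNA, and higher in 9 of 10 samples (p = 0.00586, exact paired permutation test). tRNA-Gly-TCC in turn was 1.46 times the third, tRNA-Val-CAC, and higher in 10 of 10 samples (p = 0.00195, the smallest this exact test allows). At the CCA end tRNA-Gly-CCC was 1.04 times tRNA-Gly-GCC, higher in 7 of 10 samples (p = 0.205, same exact test), and at the 3′ end 1.18 times tRNA-Lys-CTT (7 of 10 samples, p = 0.0781, same exact test), so neither of these leads exceeded the spread between samples. The neighbours were picked by these levels, and the tests say only whether the order holds from sample to sample.

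Set side by side within each sample, the pair differed in every part. tRNA-Gly-TCC had 8.09 times the 5′ end reads of tRNA-Gly-CCC (10 of 10 samples), while tRNA-Gly-CCC had 11.1 times the 3′ end reads, 3.41 times the CCA-end reads (10 of 10 samples for both) and 1.28 times the internal reads. Each of the first 3 gave p = 0.00195 in the exact paired permutation test (0.00251 after Benjamini-Hochberg adjustment over 9 such measures). The totals lay much closer, with tRNA-Gly-TCC 1.23 times higher and above tRNA-Gly-CCC in 9 of 10 samples (p = 0.00391, adjusted p = 0.00439, same exact test). The exception was CD-F0 replicate 1, with 8060 RPM for tRNA-Gly-CCC and 7755 RPM for tRNA-Gly-TCC. In the share of its own reads that came from the 5′ end, tRNA-Gly-CCC was 38.6 percentage points ± 8.40 (SD, n = 10) below tRNA-Gly-TCC. The largest 95% Wilson half-width of any of these shares in any sample was 0.214 points, which covers counting error only.

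**Figure D2:**
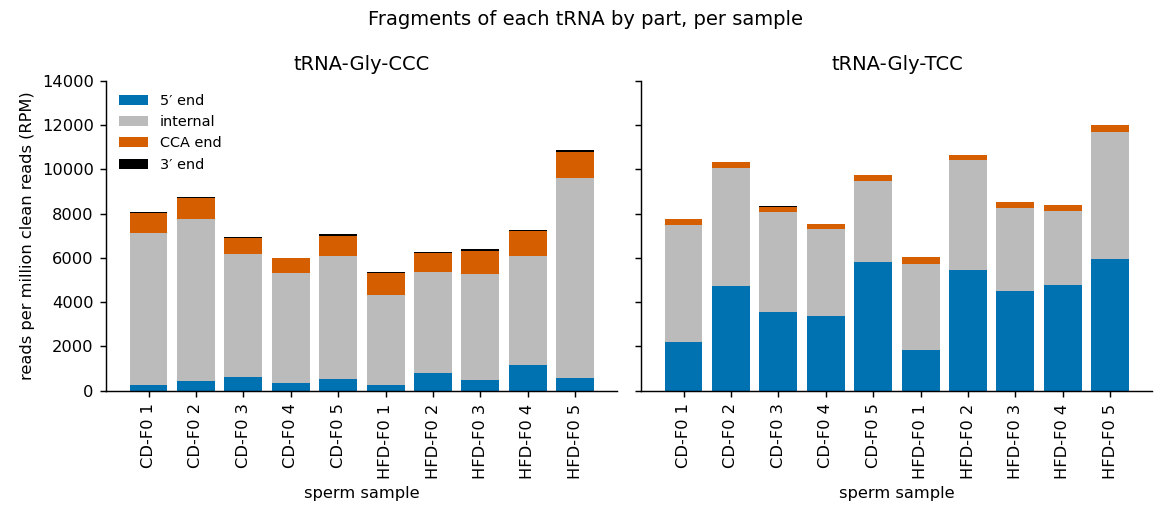
Stacked bars give RPM of tRNA-Gly-CCC (left) and tRNA-Gly-TCC (right) in each of the 10 sperm samples (horizontal), split into 5′ end, internal, CCA-end and 3′ end reads. Internal reads fill most of every tRNA-Gly-CCC bar, and 5′ end reads take 28.4% to 59.4% of the tRNA-Gly-TCC bars.

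Their CCA ends also differed in how many reads matched the genome. In tRNA-Gly-CCC 63.8% ± 4.28 (SD, n = 10) of CCA-end reads had no match in the genome with 1 mismatch allowed, near the median of 63.5% over the 50 nuclear tRNAs with such reads. In tRNA-Gly-TCC the share was 15.7% ± 2.50 (SD, n = 10), the 41st of 50, and in tRNA-Gly-GCC 11.2%. The difference of 48.1 percentage points between the pair was seen in 10 of 10 samples (p = 0.00195, exact paired permutation test). All 5′ end and 3′ end reads of both matched the genome. Counts restricted to genome-matched reads therefore remove most CCA-end reads of tRNA-Gly-CCC and few of tRNA-Gly-TCC. The CCA-end ratio between the pair and the CCA-end ranks given above count reads with and without a match. Restricting them to matched reads would lower that ratio. It would also put tRNA-Gly-CCC below tRNA-Gly-GCC at the CCA end, so its 1st rank there rests on reads without a match.

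**Figure D3:**
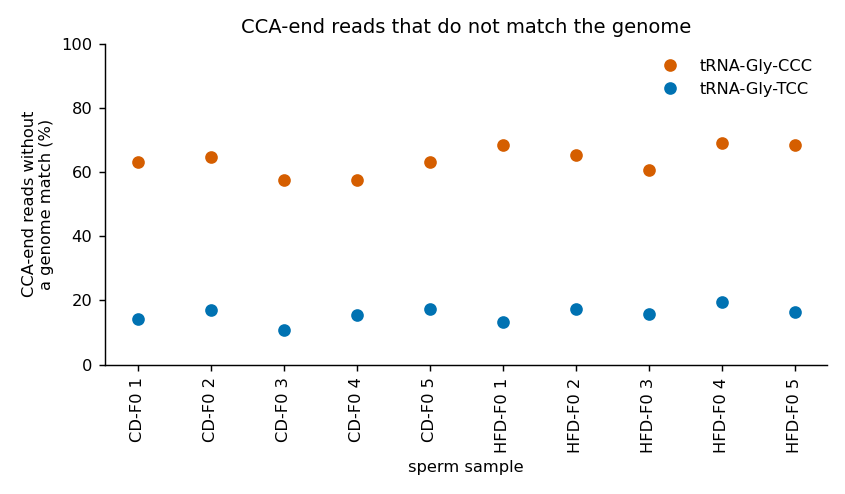
Points give, for each sperm sample (horizontal), the percent of CCA-end reads without a genome match in tRNA-Gly-CCC and in tRNA-Gly-TCC. The 2 ranges, 57.4% to 69.2% and 10.8% to 19.6%, do not meet.

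Diet was compared next, part by part. None of the 8 parts passed the study's thresholds (an unadjusted edgeR p-value of at most 0.05 and a log2 fold change of at least 1 in either direction). On the p-value alone 0 of 8 passed, and DESeq2 gave 0 for both. The study applied these thresholds to tsRNAs, whereas each part here sums reads over all genes of an anticodon, so its own calls were not repeated. On the edgeR p-value alone 1 of 8 passed in each of 3 alternatives, and none of these reached the fold threshold: the tRNA-Gly-CCC CCA end with library sizes set to the clean reads, its 5′ end without HFD-F0 replicate 1 and its internal reads without HFD-F0 replicate 5. Over all 814 features tested, 3.69% were called, 2.09% as higher and 1.6% as lower in HFD-F0, and 10.2% passed on the p-value alone, so 0 of 8 lay near this background. After adjustment over all features 0.123% had an edgeR p-value under 0.05. The RPM ranges of the groups overlapped for all 8 parts, and they did not overlap for 3.93% of all features. The median log2 fold change of the 8 was 0.09, with 5 above 0, beside a median of -0.01 over all features. Among all 193 nuclear tRNA parts 3 were called, all higher in HFD-F0: the 3′ ends of tRNA-Ala-CGC and tRNA-Ala-TGC and the CCA end of tRNA-Glu-CTC, none of them from a glycine tRNA.

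With all samples, the tRNA-Gly-CCC 5′ end had the largest fold change of the 8 parts, though not the smallest p-value. Its levels in CD-F0 replicates 1 to 5 were 235.8, 452.8, 603.2, 334.3 and 539.7 RPM, and in HFD-F0 replicates 1 to 5 they were 274.7, 775.2, 473.0, 1150 and 576.4 RPM. HFD-F0 replicates 2 and 4 lay above every CD-F0 sample and the other 3 within their range. The log2 fold change was 0.55 (SE 0.37, 95% interval -0.27 to 1.36, edgeR adjusted p = 0.648), the 4th highest of 49 nuclear 5′ ends, whose median was -0.12. Without HFD-F0 replicate 1, which had the lowest HFD-F0 level, it was 0.72 (edgeR adjusted p = 0.325), and without HFD-F0 replicate 4, which had the highest, it was 0.20, smaller in size than that of the internal reads (-0.22).

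For the 5′ end of tRNA-Gly-TCC the CD-F0 levels were 2201, 4720, 3557, 3389 and 5809 RPM and the HFD-F0 levels 1836, 5437, 4516, 4758 and 5957 RPM. The lowest and the highest of all 10 samples were both in HFD-F0, and the groups overlapped over most of their range. The log2 fold change was 0.15 (SE 0.33, 95% interval -0.58 to 0.88, edgeR adjusted p = 0.921), the 7th of 49. It was 0.015 without HFD-F0 replicate 5 and 0.33 without HFD-F0 replicate 1. A doubling, which is a log2 fold change of 1, lies outside this interval and inside that of tRNA-Gly-CCC.

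By the difference of group means, CCA-end reads had the smallest exact permutation p-value of the tRNA-Gly-CCC parts. CD-F0 samples had 890.5, 932.9, 713.7, 658.7 and 904.9 RPM and HFD-F0 samples 980.7, 885.2, 1050, 1107 and 1165 RPM. In HFD-F0 4 of 5 samples lay above the highest CD-F0 sample, and replicate 2 lay within the CD-F0 range. The HFD-F0 mean was 1038 RPM ± 109 (SD, n = 5) against 820.2 RPM ± 125 (SD, n = 5), 1.27 times higher (p = 0.0317, exact permutation test over all splits into 5 and 5 samples, two-sided), but the adjusted p over all 193 nuclear tRNA parts was 0.875. After TMM normalization the log2 fold change was 0.25 (SE 0.16, edgeR adjusted p = 0.611), the 7th of 49 CCA ends, whose median was 0.10. Among genome-matched reads alone it was 0.046 (SE 0.14). tRNA-Gly-TCC had 257 RPM ± 29.3 in CD-F0 and 283 RPM ± 24.5 in HFD-F0 at its CCA end (SD, n = 5 each; log2 fold change 0.04, edgeR adjusted p = 0.955). Between the pair, the log2 ratio of CCA-end reads averaged 1.67 in CD-F0 and 1.87 in HFD-F0 (p = 0.0238, exact permutation test, adjusted p = 0.107 over 9 measures).

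**Figure D4:**
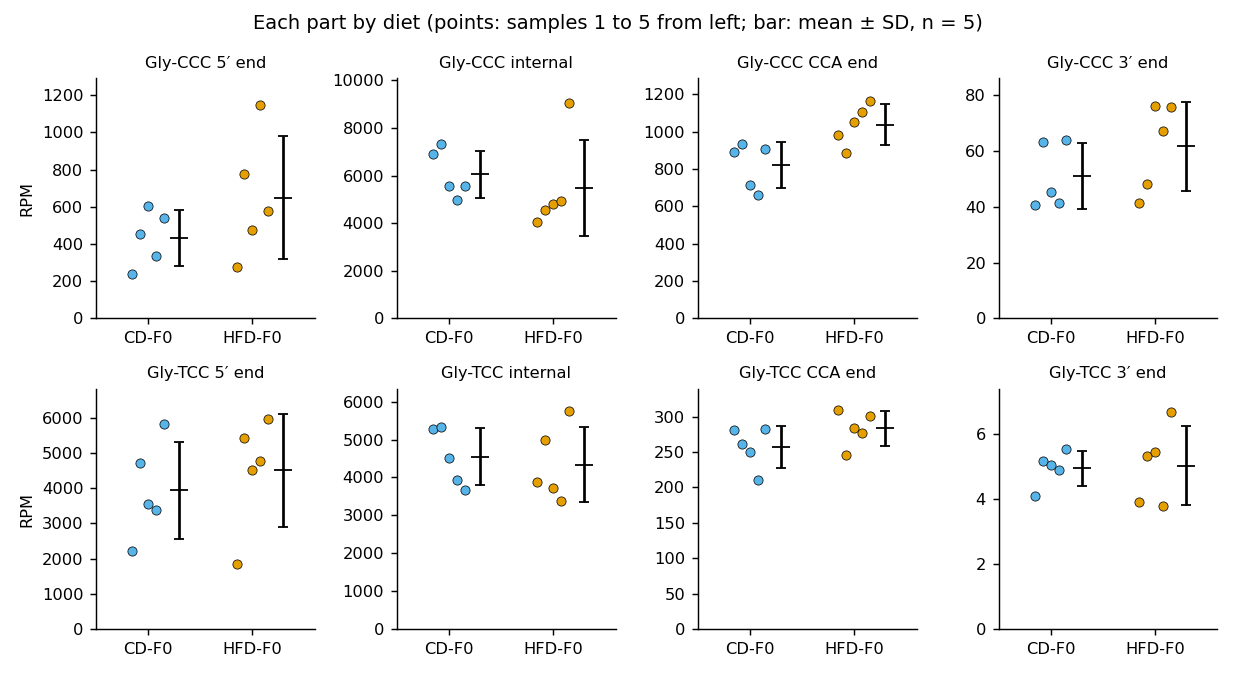
Each point is 1 sample's RPM (vertical, from 0, own scale per panel) for a part of tRNA-Gly-CCC (top row) or tRNA-Gly-TCC (bottom row) by diet (horizontal), with the mean ± SD of 5 samples as a bar. The groups overlap in all 8 panels, with 4 of 5 HFD-F0 samples above CD-F0 at the tRNA-Gly-CCC CCA end and HFD-F0 replicate 5 apart from the others in its internal reads.

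Internal reads of tRNA-Gly-CCC were 6893, 7311, 5564, 4983 and 5556 RPM in CD-F0 and 4049, 4569, 4795, 4942 and 9056 RPM in HFD-F0. HFD-F0 replicates 1 to 4 were all below the lowest CD-F0 sample, and replicate 5 was above the highest. With all samples the log2 fold change was -0.22 (SE 0.24, 95% interval -0.75 to 0.31, edgeR adjusted p = 0.829), and without HFD-F0 replicate 5 it was -0.51 (edgeR adjusted p = 0.265), short of the fold threshold. It was -0.13 without CD-F0 replicate 1 and also without HFD-F0 replicate 1. tRNA-Gly-TCC internal reads showed a log2 fold change of -0.15 (SE 0.20, edgeR adjusted p = 0.898), with 5742 RPM in HFD-F0 replicate 5 and 3369 to 4982 RPM in the others of that group. This fold change was -0.06 without CD-F0 replicate 1 and -0.30 without HFD-F0 replicate 5. At the 3′ ends the log2 fold changes were 0.20 (SE 0.24) for tRNA-Gly-CCC and -0.05 (SE 0.22) for tRNA-Gly-TCC, with edgeR adjusted p of 0.878 and 0.976. The tRNA-Gly-CCC value was 0.10 without HFD-F0 replicate 5 and 0.31 without HFD-F0 replicate 1.

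**Figure D5:**
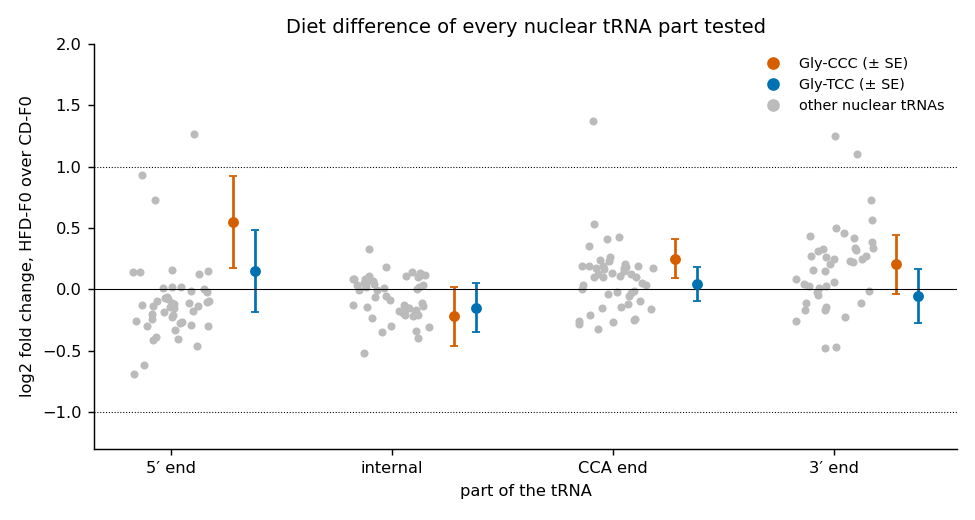
Log2 fold change of HFD-F0 over CD-F0 (vertical) for the 193 nuclear tRNA parts tested, by part (horizontal); grey points are other tRNAs, coloured points with bars are tRNA-Gly-CCC and tRNA-Gly-TCC ± SE, and dotted lines mark 1 and -1. All 8 coloured points lie between -0.22 and 0.55.

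The totals did not separate the diets. tRNA-Gly-CCC had 7366 RPM ± 1064 (SD, n = 5) in CD-F0 and 7231 RPM ± 2146 (SD, n = 5) in HFD-F0, a ratio of 0.982 (p = 0.897, exact permutation test, adjusted p = 0.992 over 51 nuclear tRNAs). For tRNA-Gly-TCC the totals were 8744 RPM ± 1239 and 9130 RPM ± 2297 (SD, n = 5 each), a ratio of 1.04 (p = 0.730, exact permutation test, adjusted p = 0.992). The tRNA-Gly-CCC ratio without HFD-F0 replicate 5 was 0.858 (p = 0.167, exact permutation test).

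Within tRNA-Gly-CCC the makeup of the reads differed by diet before adjustment. The CCA-end share was 11.0%, 10.6%, 10.3%, 10.9% and 12.8% in CD-F0 and 18.3%, 14.1%, 16.4%, 15.2% and 10.7% in HFD-F0, so 4 of 5 HFD-F0 samples lay above all CD-F0 samples and replicate 5 among them. The means differed by 3.81 percentage points (p = 0.0317, exact permutation test), with an adjusted p of 0.810 over the nuclear tRNAs. The internal share was 82.2% ± 2.70 in CD-F0 and 75.0% ± 5.54 in HFD-F0 (SD, n = 5 each; p = 0.0397, exact permutation test, adjusted p = 0.506), and the 5′ end share was 6.00% ± 2.26 and 9.20% ± 4.71 (p = 0.262, same exact test), a difference of 3.20 points that was 1.55 points without HFD-F0 replicate 4. Among genome-matched reads alone the CCA-end difference was 1.05 points (p = 0.175, exact permutation test), and the share of all tRNA-Gly-CCC reads without a genome match was 8.85% in CD-F0 and 12.6% in HFD-F0 (p = 0.0159, exact permutation test, adjusted p = 0.810). Over all clean reads, 64.9% to 75.2% matched the genome in CD-F0 and 73.3% to 74.7% in HFD-F0. Of the CCA-end reads themselves, 61.2% had no genome match in CD-F0 and 66.4% in HFD-F0 (p = 0.0556, exact permutation test, adjusted p = 0.910). As a share of the 3 named ends only, without internal reads, the CCA end was 2.38 points lower in HFD-F0. The internal difference among genome-matched reads was -5.23 points (p = 0.111, exact permutation test). Leaving out 1 sample raised the exact permutation p to at most 0.0635 for the CCA-end share and 0.0794 for the internal share. Without HFD-F0 replicate 5, the sample that went against the others of its group, the exact permutation p was 0.00794 for both shares. No share of tRNA-Gly-TCC differed beyond the spread between samples: the 5′ end share was 44.2% ± 11.0 in CD-F0 and 48.1% ± 10.2 in HFD-F0 (SD, n = 5 each; p = 0.563, exact permutation test). This difference of 3.87 points was -0.10 without CD-F0 replicate 1 and 8.29 without HFD-F0 replicate 1.

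tRNA-Gly-GCC, whose 5′ fragment was the one the study followed up, is the closest comparison. The study reported that fragment as significantly increased in HFD-F0 sperm by sequencing, and showed the increase by Northern blot. Here all 5′ end reads of the anticodon were summed and p adjusted over all features, which is a different measure. On this measure the 5′ end of tRNA-Gly-GCC had a log2 fold change of 0.93 (SE 0.49, edgeR adjusted p = 0.514). This was above 0.55 for tRNA-Gly-CCC and 0.15 for tRNA-Gly-TCC, and the difference was tested through the ratio within each sample. The 5′ end level of tRNA-Gly-TCC over that of tRNA-Gly-GCC was 3.11, 2.50, 2.19, 2.04 and 1.98 in CD-F0 and 1.94, 1.06, 1.62, 0.768 and 2.81 in HFD-F0. HFD-F0 replicates 1 to 4 lay below all CD-F0 samples and replicate 5 among them. On the log2 scale the ratio averaged 1.22 ± 0.266 (SD, n = 5) in CD-F0 and 0.57 ± 0.734 (SD, n = 5) in HFD-F0 (p = 0.103, exact permutation test, adjusted p = 0.413 over 8 ratios). Without HFD-F0 replicate 5 the groups no longer overlapped, with a difference of -0.88 (p = 0.00794, exact permutation test, the smallest that 4 against 5 samples allow). That is the sample that went against the others, and with any other of the 10 samples left out the exact permutation p was between 0.103 and 0.214. For tRNA-Gly-CCC the ratio to tRNA-Gly-GCC was -1.97 ± 0.443 in CD-F0 and -2.28 ± 0.419 in HFD-F0 on the log2 scale (SD, n = 5 each; p = 0.278, exact permutation test). This difference of -0.31 was -0.18 without CD-F0 replicate 3 and -0.43 without HFD-F0 replicate 1. The mitochondrial tRNA-Gly-TCC, a separate tRNA of the mitochondrial genome, was read at a mean of 26.1 RPM, and its 5′ end had a log2 fold change of 1.05 (SE 0.52, edgeR adjusted p = 0.478), with 67.5 RPM in HFD-F0 replicate 4 and 5.68 to 19.4 RPM in the other 9 samples.

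Across the 10 samples, the 5′ end of tRNA-Gly-CCC moved most like the 5′ end of tRNA-Glu-CTC (Spearman rho 0.903), the CCA end of tRNA-Phe-GAA (0.867) and the 5′ end of tRNA-Glu-TTC (0.855). The tRNA-Gly-TCC 5′ end was most like the 3′ end of tRNA-Lys-TTT (rho 0.976), the 5′ end of tRNA-Gln-TTG (0.915) and the 5′ end of tRNA-Asp-GTC (0.891). At the CCA end tRNA-Gly-CCC was most like tRNA-Ala-TGC (CCA end, rho 0.879), and tRNA-Gly-TCC was most like tRNA-Gly-CCC (rho 0.758). The 5′ end and internal levels of the same tRNA were hardly related, with rho -0.08 for tRNA-Gly-CCC and 0.08 for tRNA-Gly-TCC, while the internal levels of the 2 tRNAs had rho 0.636. These values are the highest of 189 parts compared, or chosen pairs, over samples that share their library and depth, and they are given as a description. Reads that fit several sequences are divided between them, and how far such shared reads add to the likeness was not tested.

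The samples were also checked for RNA of other cells by lists of miRNAs. All 5 sperm and germ line miRNAs were present, with a summed level of 11654 RPM ± 960.0 (SD, n = 5) in CD-F0 and 10486 RPM ± 2877 (SD, n = 5) in HFD-F0 (p = 0.405, exact permutation test), and 3 of 5 had a higher mean in HFD-F0. mir-449a was the most abundant of them (6356 RPM, 57.4% of the sum) and mir-449b the least (2.02 RPM). Their sum was lowest in HFD-F0 replicate 4 (7275 RPM), which had the highest tRNA-Gly-CCC 5′ end level, and highest in HFD-F0 replicate 1 (15064 RPM), which had the lowest 5′ end levels of its group for both tRNAs and also the highest epithelial (9463 RPM) and muscle (36525 RPM) sums of all samples. Over the 10 samples the sum had rho -0.58 with the tRNA-Gly-CCC 5′ end and -0.55 with the tRNA-Gly-TCC 5′ end, given as a description over libraries that share their depth. Smooth and striated muscle miRNAs (6 of 6 present, 94.9% of the sum from mir-143) summed to 26111 RPM in CD-F0 and 29202 RPM in HFD-F0 (p = 0.444, exact permutation test), and their sum was lowest of all samples, 15876 RPM, in HFD-F0 replicate 5, which had the highest internal level of tRNA-Gly-CCC (rho -0.68 over the 10 samples, as a description), and 4 of 6 had a higher mean in HFD-F0. Epithelial miRNAs (6 of 6 present, led by mir-429 and least for mir-205, 108 RPM) summed to 5519 RPM in CD-F0 and 6890 RPM in HFD-F0 (p = 0.167, same exact test), and all 6 had a higher mean in HFD-F0. The epithelial sum had rho 0.467 with the tRNA-Gly-CCC CCA end over the 10 samples, as a description. Blood and immune miRNAs (7 of 7 present, led by mir-146a, with mir-144 at 2.56 RPM) summed to 4499 and 4789 RPM (p = 0.667, same exact test), with 6 of 7 higher on average in HFD-F0, and were likewise lowest in HFD-F0 replicate 5 (3219 RPM, rho -0.55 with tRNA-Gly-CCC internal reads, as a description). The correlations given here for the lists were the largest in size of those computed with both 5′ ends and with tRNA-Gly-CCC internal and CCA-end reads. Those not given lay between -0.42 and 0.10. None of the listed miRNAs was at 0 on average, and the part of other cells in the tRNA-Gly-CCC and tRNA-Gly-TCC levels was not tested. In such bulk samples fewer cells of a type and less RNA per cell cannot be told apart.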

How the data were processed

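The deposited tables hold estimated counts (expected counts) per RNA class, which the authors made with SPORTS, aligning clean reads with Bowtie, 1 mismatch allowed. The submitters' processing notes name mm10. Reads that fit several sequences are divided between them, and no normalization was applied. Adapters carried unique molecular identifiers, and whether reads were collapsed by them is not given in the sources used here, so intervals cover counting error only.

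Reads of nuclear tRNAs with and without a genome match were added, and internal reads were the total less the 3 ends. Between 92.6% and 95.2% of clean reads were annotated. Estimated counts were rounded and tested in 1 fit over all 814 features left by filterByExpr, of 1468 formed, with edgeR 4.0.16 (R 4.3.3, TMM, quasi-likelihood test, Benjamini-Hochberg adjustment). The script was tested on simulated data. Levels and shares were tested by exact permutation over 252 splits, or over 1024 sign flips within samples, with scipy 1.17.1. Shares have 95% Wilson intervals. The alternatives were a fit with DESeq2 1.42.0, library sizes set to the clean reads, no filter or at least 10 counts, genome-matched reads, tRNA parts alone, other denominators, leaving out each sample and a replicate block. No 2 libraries were alike within sampling noise (lowest chi-square per degree of freedom 508 over 45 pairs). Named were all parts of both tRNAs, the other glycine tRNAs, direct neighbours and the 3 highest in level. The 3 parts most like each 5′ end and the part most like each CCA end were also named. The members, lists and tests were chosen with earlier results of these data known. No fragment lengths were analysed here.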

Additional observations from a re-analysis of the deposited data

Results flagged for a closer look

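In the HFD-F0 group the internal level of tRNA-Gly-CCC was 9056 RPM in replicate 5, far above the next sample at 4942 RPM. The 5′ end share of tRNA-Gly-TCC was 30.4% in HFD-F0 replicate 1, far below the next sample of its group at 49.6%. These were the 2 of 40 groups of 5 values in which 1 sample stood apart by Dixon's 95% criterion, and chance gives about 1 in 20.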

How the results depend on the processing

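Of 295 values under alternatives, 264 kept their direction and side of the threshold, and 0 of 8 parts were called in every alternative. The tRNA-Gly-TCC 3′ end log2 fold change was 0.026 with library sizes set to the clean reads, and its CCA end -0.012 with tRNA parts alone. The tRNA-Gly-CCC CCA end log2 fold change was 0.046 among genome-matched reads. The tRNA-Gly-CCC CCA-end share difference was 1.05 points among genome-matched reads and -2.38 points of the named ends, and the internal one -5.23 points among genome-matched reads. The tRNA-Gly-TCC 5′ end share difference was -0.26 points of the named ends. The reason for these shifts was not tested.

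Leaving out 1 sample at a time gave -0.20 to 0.027 for the tRNA-Gly-TCC 3′ end and -0.016 to 0.11 for its CCA end (log2 fold change), 0.858 to 1.05 for the tRNA-Gly-CCC total and 0.962 to 1.13 for the tRNA-Gly-TCC total (ratio). Share differences ranged from 2.97 to 4.87 points (tRNA-Gly-CCC CCA end), -9.27 to -5.45 (tRNA-Gly-CCC internal), -0.10 to 8.29 (tRNA-Gly-TCC 5′ end) and -0.11 to 0.60 (tRNA-Gly-TCC CCA end). The tRNA-Gly-CCC CCA-end share had an exact permutation p between 0.0556 and 0.0635 without CD-F0 replicates 2 or 3 or HFD-F0 replicates 1 or 3, and the internal share one between 0.0635 and 0.0794 without any sample except CD-F0 replicates 3 or 5 or HFD-F0 replicate 5. The diet difference (HFD-F0 minus CD-F0) in the log2 ratio of the tRNA-Gly-TCC to the tRNA-Gly-GCC 5′ end ranged from -0.88 to -0.41.

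Over all features, replicate numbers did not consistently pair the samples. The correlations of deviations were 0.336, -0.09, 0.246, -0.19 and -0.14, and 2 of 5 samples were closest to their own number. With the replicate block, 0 of 8 parts were called and the tRNA-Gly-CCC 5′ end log2 fold change was 0.40. That of the tRNA-Gly-TCC 5′ end was 0.07 with the block and 0.04 with tRNA parts alone. In both groups the tRNA-Gly-TCC 5′ end level was lowest in replicate 1 and highest in replicate 5. With the block the SE of its fold change was 0.18, against 0.33 without it, while that of its CCA end was 0.17 against 0.14. Whether the numbers mark a shared batch was not tested. Under Pearson correlation of log2 RPM in place of Spearman, at least 1 of the 3 most alike parts changed for each of the 4 ends compared. For the tRNA-Gly-CCC CCA end none of the 3 stayed, and the tRNA-Leu-CAA CCA end came first (Pearson r 0.926). On depth, the lowest count of any part in any sample was 120.8 reads, for the tRNA-Gly-TCC 3′ end.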
